A study of Caenorhabditis elegans with 12 samples.

Results

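The strain by cadmium interaction was the difference between 2 cadmium responses, that of MT KO larvae minus that of wild-type larvae, computed for each probe set of a whole-transcriptome array. All 12 arrays of the series entered it, 3 in each of 4 groups. MT KO with Cd larvae carried mtl-1,mtl-2(zs1), which the labels call a knockout of both metallothionein genes, and had 30 µM Cd from hatching. MT KO without Cd larvae had the same genotype and no added Cd. Wild type with Cd and wild type without Cd larvae were labelled wild type and had 30 µM and no added Cd. All 4 groups were labelled N2 (Bristol), were whole animals at the L4 larval stage, and came from parents kept at 20 °C on nematode growth medium with Escherichia coli OP50.

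Metallothioneins are small cysteine-rich proteins that bind cadmium, zinc and copper. In C. elegans mtl-1 and mtl-2 are expressed mainly in the intestine, and other proteins handle metal beside them, among them the phytochelatin synthase PCS-1, the cadmium-responsive protein CDR-1 and the zinc transporter CDF-2. The interaction asks which genes answered cadmium differently once both metallothionein genes were missing. Values are log2 GCRMA levels, and an interaction of 1 means that the ratio of the level with Cd to that without Cd was 2-fold higher in MT KO than in wild type. A probe set was called where the adjusted p of limma was under 0.05 over all 22548 probe sets tested.

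Array medians lay between 3.98 and 4.07, and arrays of a group correlated at 0.991 to 0.997. The labels do not say whether the 3 arrays of a group came from separate cultures, so the p-values rest on the spread between arrays of a group, and that spread may be purely technical. In whole larvae, fewer cells of a type and less RNA per cell cannot be told apart. The gap between 3′ and 5′ control probe sets for GAPDH and actin, a measure of RNA integrity and amplification, was 0.92 ± 0.17 in MT KO with Cd, 1.38 ± 0.10 in MT KO without Cd, 1.13 ± 0.10 in wild type with Cd and 1.98 ± 0.78 in wild type without Cd (log2, mean ± SD, n = 3 each). Replicate 1 of wild type without Cd stood highest at 2.81 and had the lowest array weight, 0.289. With this gap as a covariate, 1081 of the 1229 calls described here were made again in the same direction, among 1385 calls in all.

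The knocked-out genes went with the labels. On mtl-1 the level was 3.83, 3.96 and 4.26 in MT KO with Cd, 3.73, 3.43 and 3.56 in MT KO without Cd, 9.69, 9.58 and 10.28 in wild type with Cd, and 5.10, 4.47 and 4.69 in wild type without Cd. On 1 mtl-2 probe set it was 4.16, 3.66 and 3.65 in MT KO with Cd, 3.67, 3.64 and 3.80 in MT KO without Cd, 11.19, 11.28 and 11.54 in wild type with Cd, and 11.68, 11.54 and 11.33 in wild type without Cd. Every MT KO array was below every wild-type array for both genes. The labels do not say where these probes lie relative to the zs1 change. The interaction of mtl-2 was 0.30 ± 0.21 (SE), with an adjusted p of 0.571, and its other probe sets had adjusted p-values of 0.821 and 0.778. The gene was high in wild type both with and without Cd.

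The interaction was called for 1229 probe sets (5.45% of those tested). The 1114 of them with 1 gene symbol stood for 1077 genes, while 100 had several symbols and 15 had none. The response was more positive in MT KO for 472 of the 1229 (2.09% of those tested) and more negative for 757 (3.36%). At least a 2-fold difference between the responses was found for 666, and 507 of these were more negative in MT KO. Called interactions ran from -4.66 for mtl-1, itself a knocked-out gene, to 2.80. Their median size was 1.06, against a median SE of 0.14 over all probe sets. Probe sets of the types that can read several related transcripts made up 519 of the 1229. Of all 22548 probe sets tested, 6711 were of these types, a smaller share. Leaving out 1 array at a time gave 823 to 1384 calls, and the number more positive in MT KO was 284 without MT KO without Cd replicate 2 and 281 without wild type with Cd replicate 1.

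Many cadmium responses had no called interaction. Both strains had a called response at 1710 probe sets, of which 1680 had the same sign, and 849 rose and 672 fell in both strains with no interaction called. Phytochelatin synthase pcs-1 is an example, with a response of 0.57 in MT KO and 0.55 in wild type and an interaction of 0.02 ± 0.19 (SE, adjusted p = 0.969). The phytochelatin transporter gene hmt-1 was lowered by both, with responses of -0.51 in MT KO and -0.73 in wild type and an interaction of 0.22 ± 0.18 (SE, adjusted p = 0.647). In the plot of the 2 responses such probe sets lie near the diagonal.

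**Figure D1:**
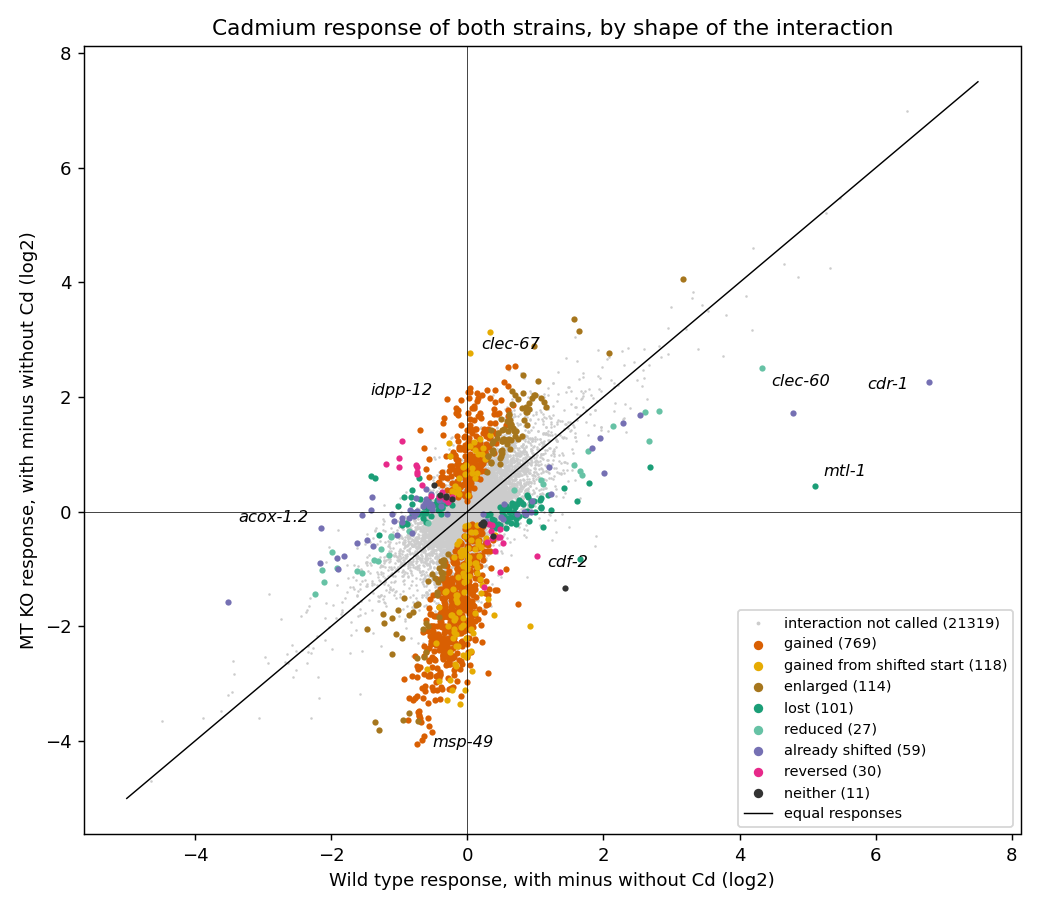
Cadmium response in MT KO (vertical axis) against that in wild type (horizontal axis), both with minus without Cd on the log2 scale, 1 point for each of 22548 probe sets, coloured by shape where the interaction was called. Most coloured points form a column near 0 on the wild-type axis that reaches down to msp-49 (MT KO response -3.98), while mtl-1 and cdr-1 lie far to the right of the diagonal.

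The called probe sets were sorted into shapes by the calls of 3 single comparisons of the same fit: the response of each strain, and MT KO minus wild type without Cd. A response called in MT KO but not in wild type was named gained, and this was the commonest shape, with 769 probe sets or 62.6% of the called. A further 118 were gained from a shifted start, meaning that MT KO already differed from wild type without Cd in the direction opposite to its response. Responses called in both strains with the same sign were larger in MT KO for 72 upward and 42 downward (enlarged) and smaller for 27 (reduced). A wild-type response was lost in MT KO for 101, was already shifted for 59, meaning that MT KO without Cd had moved the way wild type moved with Cd, and was reversed for 30. The last 11 had no called response in either strain. An uncalled response is one that missed the threshold, not a response shown to be 0. The strain difference was called only with Cd for 853 of the 1229 (69.4%), only without Cd for 148 (12%), in both conditions for 60 and in neither for 168. Of the 60, 58 had opposite signs in the 2 conditions. Over all probe sets the strains differed at 8.56% with Cd and at 1.65% without Cd.

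**Figure D2:**
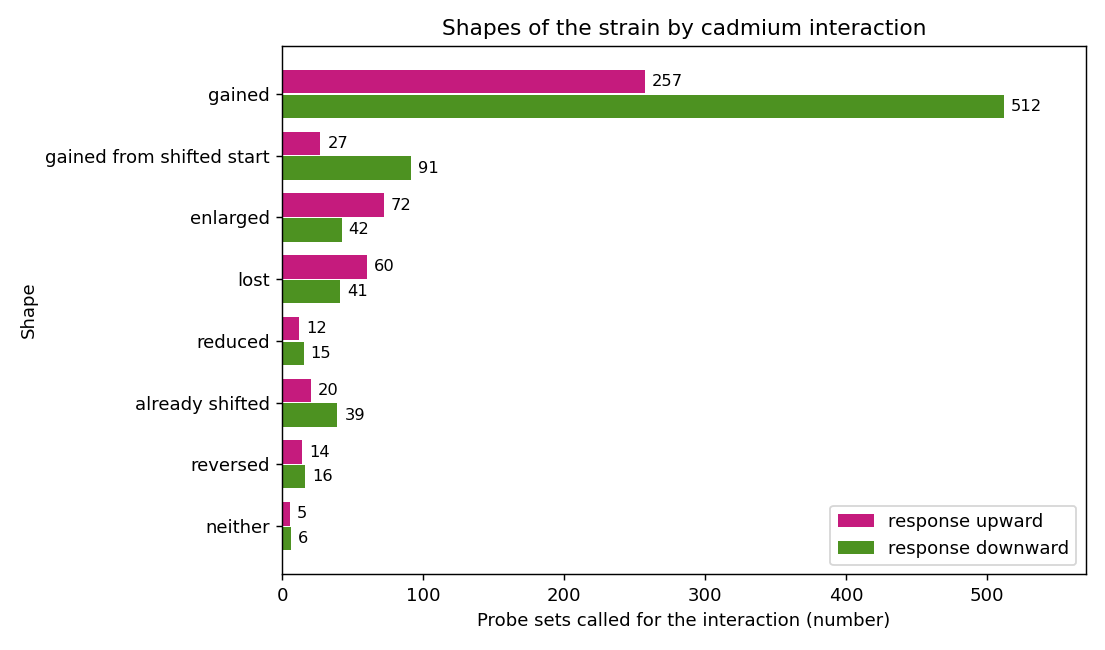
Number of probe sets with a called interaction (horizontal axis) for each shape (vertical axis), split by whether the response that names the shape went up or down (for neither, the sign of the interaction). Gained responses downward, 512, outnumber gained responses upward, 257, while enlarged responses are more often upward, 72 against 42.

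A wild-type response was lost at 60 probe sets that cadmium raised and 41 that it lowered, with median responses of 0.00 in MT KO and 0.72 in wild type for the raised and 0.09 in MT KO and -0.64 in wild type for the lowered. The metallothionein gene mtl-1, labelled as knocked out in MT KO, led the raised, so its loss of response there comes with the genotype. Its response was 0.44 in MT KO (adjusted p = 0.19) and 5.10 in wild type, a 34.3-fold rise, and the interaction was -4.66 ± 0.30 (SE, adjusted p = 0.000162). The level of dod-22, a gene named as downstream of the FOXO factor DAF-16, was 5.34, 5.17 and 5.55 in MT KO with Cd, 4.61, 5.06 and 4.53 in MT KO without Cd, 4.25, 4.63 and 3.72 in wild type with Cd, and 5.64, 5.97 and 5.22 in wild type without Cd. Wild type with Cd lay below wild type without Cd on all arrays, and MT KO with Cd lay above MT KO without Cd. Without Cd, MT KO lay below wild type on every array, a strain difference that was not called. The interaction was 2.03 ± 0.36 (SE, adjusted p = 0.012), and its call was not made without wild type without Cd replicates 1 and 2. The same direction was called for dbd-13, at 8.11, 7.76 and 8.03 in MT KO with Cd, 7.46, 7.53 and 7.12 in MT KO without Cd, 5.87, 6.37 and 6.61 in wild type with Cd, and 7.24, 7.88 and 7.81 in wild type without Cd. Its interaction was 1.95 ± 0.32 (SE, adjusted p = 0.00732), and within each strain the groups with and without Cd did not overlap.

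Smaller losses included a germline gene and a detoxification gene. For gld-1, which encodes a translational repressor of the germ line, the response was -0.22 in MT KO and 0.37 in wild type (interaction -0.59 ± 0.11, SE, adjusted p = 0.0135). For gst-28, a glutathione S-transferase gene, it was 0.14 in MT KO and -0.80 in wild type (interaction 0.94 ± 0.16, SE, adjusted p = 0.00804). MT KO with Cd and without Cd overlapped for gst-28, while wild type with Cd was below wild type without Cd on every array. Without Cd, gst-28 was also lower in MT KO than in wild type on every array, a strain difference that was not called. The count of 101 depended on single arrays more than the total did. It was 54 and 57 without MT KO with Cd replicates 1 and 2, 58 and 65 without MT KO without Cd replicates 2 and 3, 53 without replicate 1 of wild type with Cd and 58 without replicate 3 of wild type without Cd.

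The already shifted shape held 20 probe sets raised by cadmium in wild type and 39 lowered by it. In both, the median strain difference with Cd was small, -0.14 for the raised and 0.09 for the lowered, against 0.68 and -0.75 without Cd. The shape requires a difference without Cd and an interaction of opposite sign, so a smaller difference with Cd was favoured by the choice. The largest case was cdr-1, which encodes a cadmium-responsive transmembrane protein of intestinal lysosomes. Its level was 9.90, 10.23 and 10.16 in MT KO with Cd, 7.84, 7.88 and 7.77 in MT KO without Cd, 10.70, 10.41 and 10.42 in wild type with Cd, and 3.88, 3.95 and 3.37 in wild type without Cd. No groups overlapped, and MT KO without Cd stood 4.10 above wild type without Cd (adjusted p = 2.43e-06). The cadmium response was 2.27 in MT KO, a 4.81-fold rise, and 6.78 in wild type, with an interaction of -4.51 ± 0.21 (SE, adjusted p = 7.4e-05).

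Other genes followed this pattern at lower size. The lysosomal lipase gene lipl-4 read 6.43, 6.48 and 6.26 in MT KO with Cd, 5.72, 5.74 and 5.67 in MT KO without Cd, 6.61, 6.49 and 6.58 in wild type with Cd, and 4.91, 4.13 and 4.63 in wild type without Cd. Its interaction was -1.32 ± 0.22 (SE, adjusted p = 0.00925), and wild type without Cd was the lowest group throughout. The cysteine protease gene cpr-1 had an interaction of -0.76 ± 0.10 (SE, adjusted p = 0.00343), with a strain difference of 0.54 without Cd.

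Among the genes already low without Cd, acox-1.2 encodes a peroxisomal acyl-CoA oxidase, an enzyme class that shortens fatty acid chains, including those of ascaroside pheromones. Its level was 5.30, 5.07 and 4.69 in MT KO with Cd, 5.45, 4.88 and 5.57 in MT KO without Cd, 4.89, 5.09 and 4.92 in wild type with Cd, and 7.09, 7.02 and 7.23 in wild type without Cd. Wild type without Cd stood apart from the other 3 groups, which overlapped, and the interaction was 1.87 ± 0.27 (SE, adjusted p = 0.00468). Its family member acox-1.1 had responses of -0.59 in MT KO and -1.39 in wild type and an interaction of 0.80 ± 0.09 (SE, adjusted p = 0.00197). Unlike for acox-1.2, no groups overlapped, and MT KO lay below wild type without Cd and above it with Cd. The glucuronosyltransferase gene ugt-31 had responses of -0.89 in MT KO and -2.17 in wild type (interaction 1.28 ± 0.20, SE, adjusted p = 0.00695).

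In this shape both the strain difference without Cd and the wild-type response are measured against the same 3 wild type without Cd arrays, so an error in those arrays moves both. Those arrays also had the widest 3′ to 5′ gap. With the gap as a covariate 54 of the 59 interactions were called again and 34 kept the shape. Without wild type without Cd replicates 1 and 2, a setting chosen after seeing the data, 28 were called again and 17 kept the shape, although the shape then held 123 probe sets. The count was 32 without MT KO without Cd replicate 2 and 92 without wild type without Cd replicate 3. The interactions of cdr-1, lipl-4, cpr-1, acox-1.2, acox-1.1 and ugt-31 were called under every alternative tried.

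Reversed responses were called in both strains with opposite signs. There were 14 that cadmium raised in wild type and lowered in MT KO, and 16 with the opposite pattern. The zinc transporter gene cdf-2, whose product loads zinc into lysosome-related gut granules, led the first set. It read 5.40, 5.50 and 5.82 in MT KO with Cd, 6.51, 6.45 and 6.07 in MT KO without Cd, 6.17, 5.91 and 6.42 in wild type with Cd, and 5.23, 5.17 and 5.04 in wild type without Cd. The groups did not overlap within either strain: cdf-2 fell 1.71-fold in MT KO and rose 2.03-fold in wild type. The interaction was -1.79 ± 0.23 (SE, adjusted p = 0.00268), and without Cd the gene was already higher in MT KO on every array (adjusted p = 0.00917). It was the 1 gene called among 20 zinc transporter and zinc sensor genes.

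For pck-3, a phosphoenolpyruvate carboxykinase gene, levels were 2.85, 2.68 and 2.93 in MT KO with Cd, 4.08, 4.19 and 4.14 in MT KO without Cd, 3.99, 3.93 and 3.87 in wild type with Cd, and 3.74, 3.59 and 3.73 in wild type without Cd. Only MT KO without Cd lay above the median of all values, 4.03. The fall in MT KO was much larger than the rise in wild type, whose adjusted p was 0.0481. The interaction was -1.57 ± 0.10 (SE, adjusted p = 0.000162). The S-adenosylmethionine synthetase gene sams-5 also fell in MT KO (response -1.05) and rose in wild type (0.48), with an interaction of -1.53 ± 0.18 (SE, adjusted p = 0.00185). Its probe set can read related transcripts.

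In the opposite direction, sptl-2, which encodes a subunit of serine palmitoyltransferase, the entry enzyme of sphingolipid synthesis, read 7.12, 7.18 and 7.57 in MT KO with Cd, 6.83, 6.38 and 6.33 in MT KO without Cd, 6.56, 6.33 and 6.49 in wild type with Cd, and 6.90, 7.22 and 7.45 in wild type without Cd. MT KO with Cd and wild type without Cd were the 2 higher groups. The interaction was 1.51 ± 0.26 (SE, adjusted p = 0.00898). A small nematode-specific peptide gene, nspb-10, had responses of 0.84 in MT KO and -1.19 in wild type (interaction 2.03 ± 0.24, SE, adjusted p = 0.00223), and dod-19 had 0.27 in MT KO and -0.53 in wild type (interaction 0.80 ± 0.11, SE, adjusted p = 0.00439).

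All 30 interactions of the reversed shape were called again with the covariate, with the replicate block and with quantile normalization, but the shape needs a call in each strain and was less stable. Of the 30, 12 kept the shape with the covariate, 18 with the block and 23 with quantile normalization. The count of 30 became 19 without MT KO with Cd replicate 2, 18 and 19 without MT KO without Cd replicates 2 and 3, 18 without replicate 1 of wild type with Cd, 15 without its replicate 2, and 16 without replicate 2 of wild type without Cd.

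Reduced responses went the same way in both strains but less far in MT KO. The C-type lectin gene clec-60, known to be induced by bacterial infection, read 5.11, 5.38 and 5.26 in MT KO with Cd, 2.86, 2.77 and 2.59 in MT KO without Cd, 6.97, 7.48 and 6.84 in wild type with Cd, and 2.92, 2.67 and 2.69 in wild type without Cd. The strains overlapped without Cd and were apart with Cd, with responses of 2.51 in MT KO and 4.33 in wild type. Levels without Cd lay below the median of all values, 4.03, so these responses start from little or no signal. The interaction was -1.82 ± 0.22 (SE, adjusted p = 0.00237). The same shape was called for nstp-8, of a nucleotide sugar transporter family (interaction -1.06 ± 0.15, SE, adjusted p = 0.00374), and nadk-2, an NAD kinase gene (-0.75 ± 0.12, SE, adjusted p = 0.00831). Among responses downward, fip-5, of a family named for induction by fungal infection, had -0.43 in MT KO and -1.12 in wild type (interaction 0.69 ± 0.12, SE, adjusted p = 0.0122). The 27 probe sets of this shape became 16 without MT KO with Cd replicate 1, 16 without MT KO without Cd replicate 2, 42 without replicate 1 of wild type without Cd and 13 without its replicate 3.

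**Figure D3:**
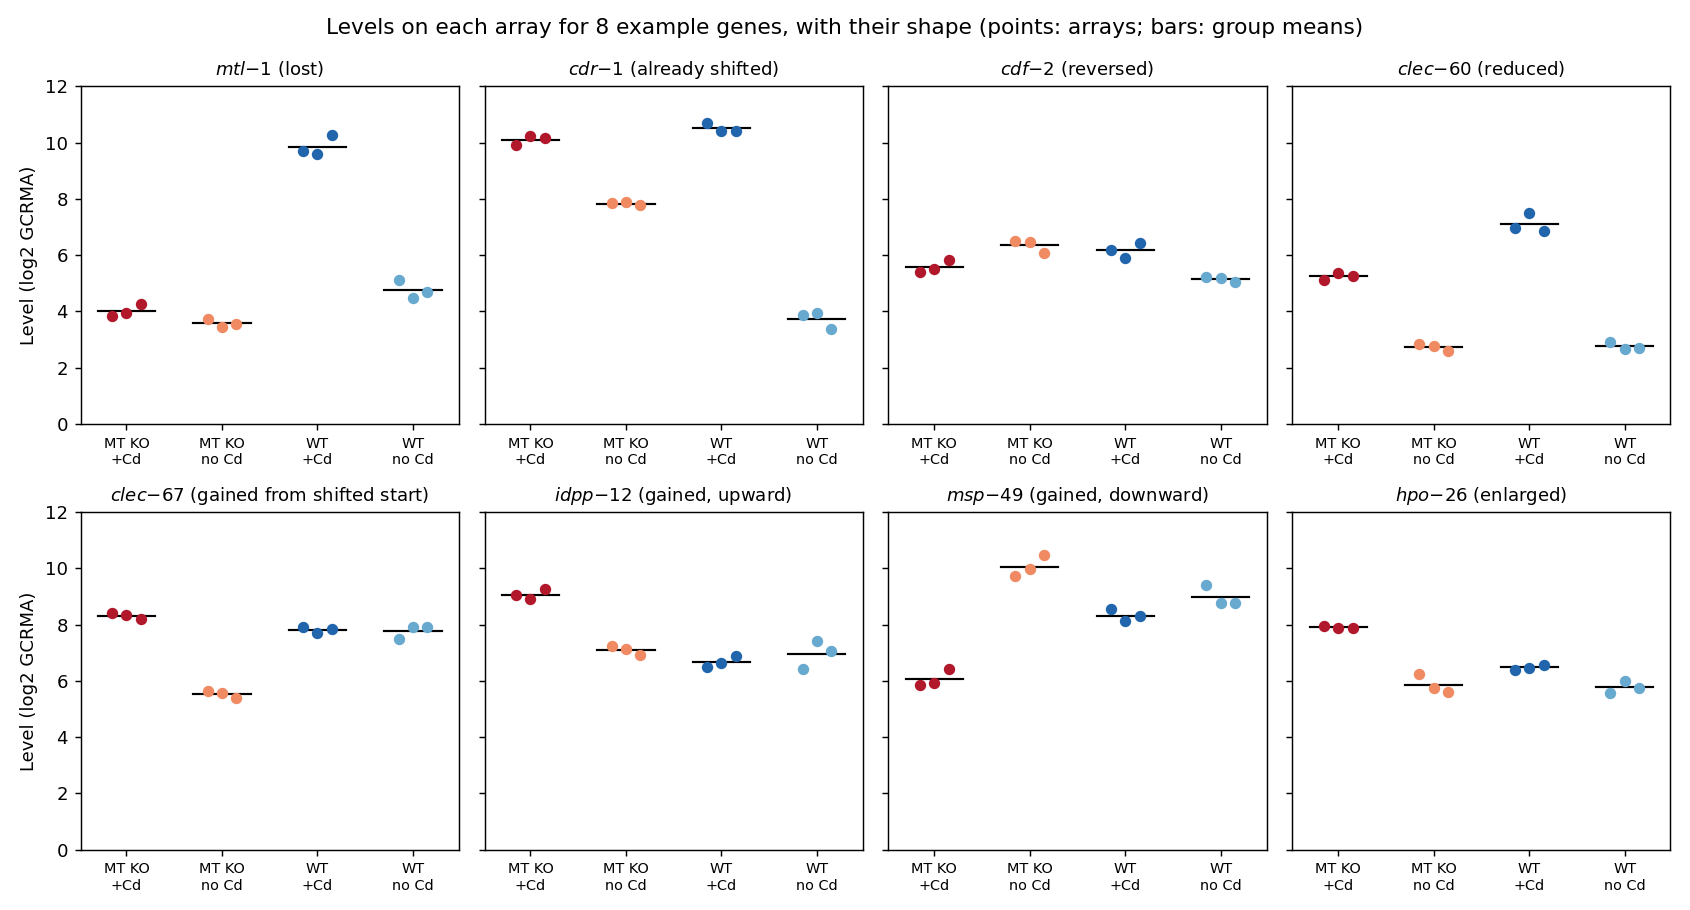
Level of 8 genes (log2 GCRMA, vertical axis) on each of the 12 arrays, by group (horizontal axis), with points for arrays and bars for group means. For cdr-1 MT KO without Cd lies between wild type without Cd and the groups with Cd, for cdf-2 cadmium lowers MT KO and raises wild type, and for idpp-12 and msp-49 MT KO with Cd stands apart from the other 3 groups.

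Gained from a shifted start described 27 probe sets raised in MT KO and 91 lowered. Another C-type lectin gene, clec-67, led the raised, with 8.41, 8.33 and 8.20 in MT KO with Cd, 5.65, 5.56 and 5.40 in MT KO without Cd, 7.91, 7.71 and 7.85 in wild type with Cd, and 7.49, 7.93 and 7.92 in wild type without Cd. MT KO without Cd was the group that stood apart, 2.24 below wild type without Cd (difference -2.24, adjusted p = 3.69e-05), and cadmium raised MT KO 6.84-fold to slightly above wild type. The interaction was 2.73 ± 0.17 (SE, adjusted p = 0.000162). The zinc-finger gene klu-1 (1.23 ± 0.14, SE, adjusted p = 0.0017) and swt-6, of the SWEET sugar transporter family (1.11 ± 0.13, SE, adjusted p = 0.00177), were also low in MT KO without Cd, by -0.70 and -0.98.

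Sperm genes led the 91 that were lowered. The gene gsp-4, which encodes a sperm protein phosphatase of the PP1 type, read 4.77, 4.82 and 4.79 in MT KO with Cd, 7.18, 7.12 and 7.39 in MT KO without Cd, 6.67, 6.52 and 6.22 in wild type with Cd, and 6.56, 6.22 and 6.49 in wild type without Cd. It was highest in MT KO without Cd and lowest in MT KO with Cd, with the wild-type groups overlapping between them, and the interaction was -2.49 ± 0.17 (SE, adjusted p = 0.00021). Its probe set and that of its near-identical paralogue gsp-3 (-2.44 ± 0.20, SE, adjusted p = 0.000503) may read each other's transcripts. The kinase gene gskl-2 (-2.53 ± 0.33, SE, adjusted p = 0.00303) was likewise 1.14 higher in MT KO without Cd. A nuclear hormone receptor gene, nhr-156, differed in that the strains overlapped with Cd. It read 3.36, 3.35 and 3.23 in MT KO with Cd, 4.57, 4.62 and 4.40 in MT KO without Cd, 3.25, 3.30 and 3.32 in wild type with Cd, and 3.37, 3.32 and 3.32 in wild type without Cd. Only MT KO without Cd stood apart, and the interaction was -1.17 ± 0.08 (SE, adjusted p = 0.00021). The other groups of nhr-156 lay below the median of all values, 4.03.

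The strain difference without Cd and the MT KO response share the 3 MT KO without Cd arrays, so the same caution holds here for those arrays. The 118 became 193 and 73 without MT KO without Cd replicates 1 and 2, and 52 without replicate 2 of wild type without Cd. Without that last array 102 of the 118 interactions were called again and 43 kept the shape.

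Gained responses downward, 512 probe sets with median responses of -1.74 in MT KO and -0.17 in wild type, were the largest set. Genes of sperm held the top places. The major sperm proteins form the cytoskeleton that moves the crawling nematode sperm, and their genes are near-identical copies, so single msp probe sets cannot be assigned to 1 gene with certainty. All 23 measured msp genes had a more negative response in MT KO, against 3.55% of all genes, and all 23 were called in every alternative tried. The median interaction of the list was -2.46, against 0.02 over all genes. For msp-49 the level was 5.87, 5.92 and 6.41 in MT KO with Cd, 9.72, 9.97 and 10.46 in MT KO without Cd, 8.55, 8.11 and 8.30 in wild type with Cd, and 9.42, 8.78 and 8.77 in wild type without Cd. All 4 groups were apart, with MT KO the higher strain without Cd and the lower with Cd. Cadmium lowered msp-49 by 15.8-fold in MT KO, and in wild type its response of -0.67 missed the threshold (adjusted p = 0.125). The interaction was -3.32 ± 0.35 (SE, adjusted p = 0.00135).

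The median level of the msp genes was 7.47, 7.38 and 7.59 in MT KO with Cd, 10.24, 10.64 and 11.15 in MT KO without Cd, 9.43, 9.56 and 9.21 in wild type with Cd, and 10.37, 9.83 and 9.72 in wild type without Cd. The 3 MT KO with Cd arrays were the lowest of the 12. Outside the msp family the median interaction of 91 sperm genes was -0.65. Of the 91, 36 (39.6%) had a more negative response in MT KO, against 3.55% of all genes. They included nspd-1, of a sperm peptide family, which read 5.38, 5.63 and 5.86 in MT KO with Cd, 8.69, 8.82 and 9.36 in MT KO without Cd, 7.62, 7.37 and 7.44 in wild type with Cd, and 8.30, 7.73 and 8.12 in wild type without Cd (interaction -2.76 ± 0.29, SE, adjusted p = 0.0013). Others were nsph-3.2 (-3.32 ± 0.41, SE, adjusted p = 0.00247) and msd-2, with a major sperm protein domain (-3.17 ± 0.41, SE, adjusted p = 0.00289). By name family, 9 of 29 spe genes, which are needed for making or activating sperm, 6 of 8 ssp genes, 4 of 6 nspd genes and 4 of 7 msrp genes were more negative in MT KO, and none of these families had a gene called the other way. Only name families with at least 4 called genes were looked at, a choice that favours shares above the 3.55% of all genes. Of the 5 listed sperm genes called more positive, 4 were nspb genes, which the list of pharynx genes also holds.

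Germline lists outside sperm had smaller shares of calls than the msp genes, and shares above the 3.55% over all genes. Of 41 genes for germline mitosis and meiosis 5 (12.2%) were called, all more negative in MT KO, with a median interaction of -0.21. Median responses of this list were -0.04 in MT KO and 0.08 in wild type, and 2 of the called genes were lost and 3 gained. Of 20 oocyte and embryo genes 4 (20%) were more negative and 1 more positive, with a median of -0.36. Here the median response was 0.03 in MT KO and 0.56 in wild type, so by its median the list rose in wild type rather than fell in MT KO. By shape, 3 of its called genes were lost and 2 gained. Among the 4 more negative, cey-2, a germline Y-box protein gene, had responses of -0.58 in MT KO and 0.30 in wild type (interaction -0.88 ± 0.17, SE, adjusted p = 0.0151). Unlike the list median, it fell in MT KO. For egg-1 and cpg-1 the MT KO groups overlapped, while wild type was higher with Cd on every array. The germline count was 1 without any of MT KO with Cd replicate 2, MT KO without Cd replicate 3, wild type with Cd replicate 1 or wild type without Cd replicate 3, 2 without any of MT KO without Cd replicate 2, wild type with Cd replicate 2 or wild type without Cd replicates 1 or 2, and 3 without MT KO without Cd replicate 1. The 4 oocyte and embryo genes became 1 without any of MT KO with Cd replicates 1 or 2, MT KO without Cd replicates 2 or 3 or wild type with Cd replicates 1 or 3, and 2 without wild type without Cd replicates 2 or 3. The vitellogenin genes, which encode yolk proteins, had no call among 5 and a median interaction of 0.25, with median responses of -1.35 in MT KO and -1.57 in wild type.

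**Figure D4:**
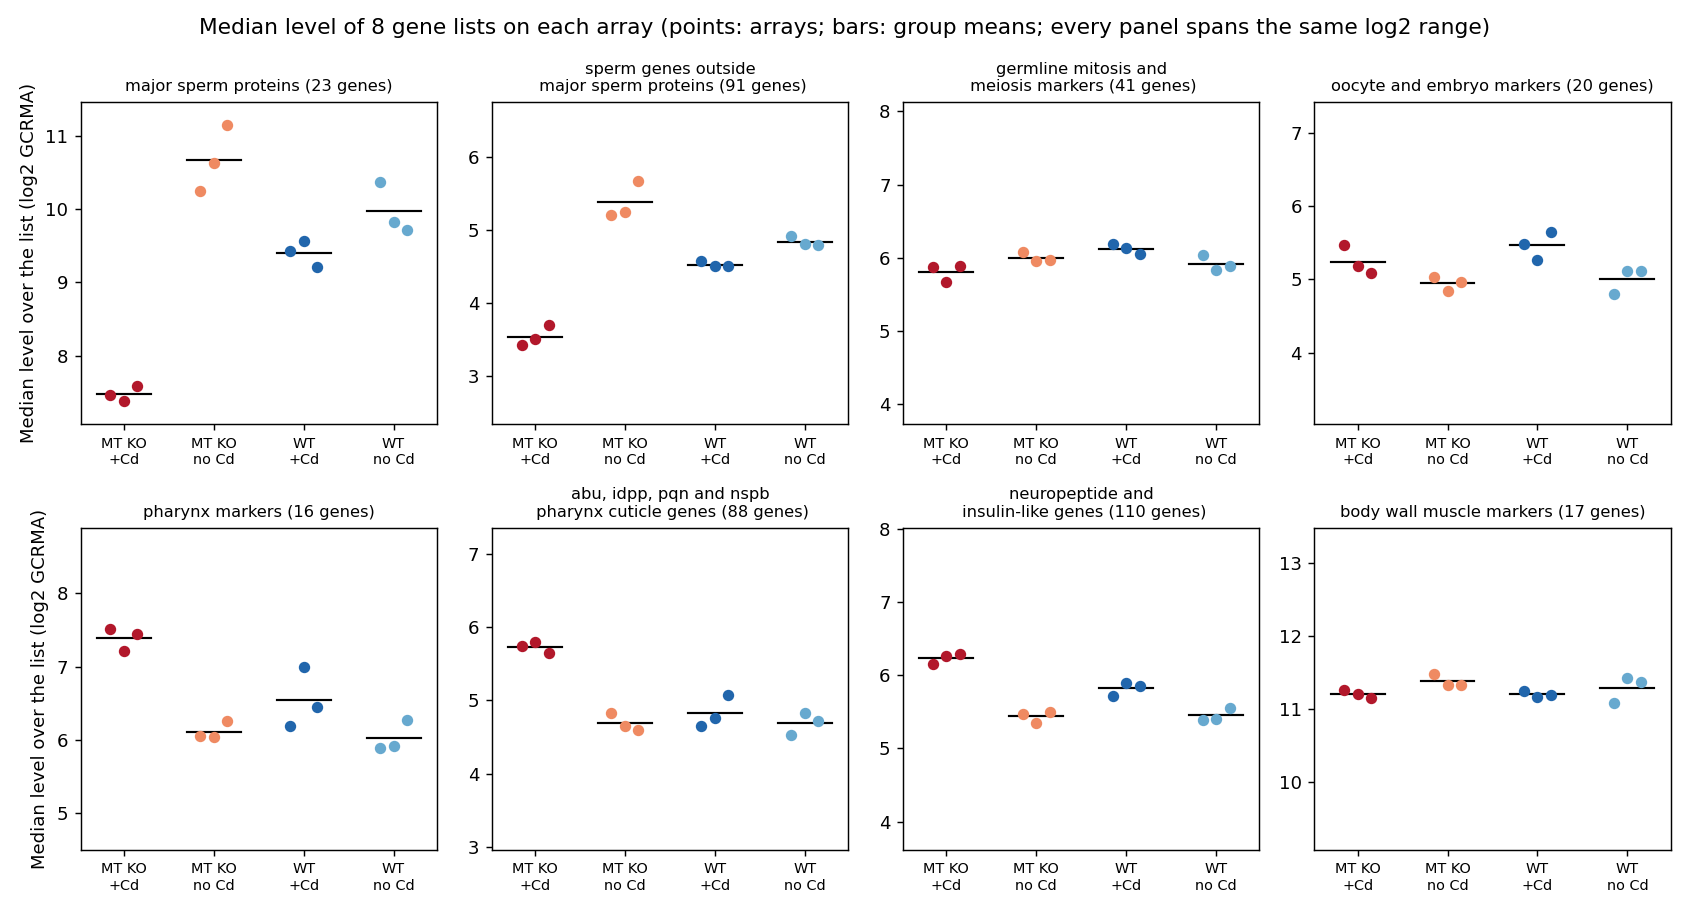
Median level over the genes of 8 lists (log2 GCRMA, vertical axes, each spanning the same log2 range) on each array, by group (horizontal axis), with points for arrays and bars for group means. MT KO with Cd lies lowest for both sperm lists and highest for the pharynx and neuropeptide lists, while body wall muscle markers differ little.

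Gained downward also covered enzymes and transporters. In fatty acid breakdown, the acyl-CoA dehydrogenase gene acdh-8 read 4.64, 4.62 and 4.84 in MT KO with Cd, 7.15, 7.33 and 7.58 in MT KO without Cd, 6.54, 6.25 and 6.63 in wild type with Cd, and 6.90, 6.46 and 6.31 in wild type without Cd. The wild-type groups overlapped, and the interaction was -2.56 ± 0.24 (SE, adjusted p = 0.000948). The acyl-CoA synthetase gene acs-10 (-2.01 ± 0.21, SE, adjusted p = 0.00145) and the fatty acid elongase gene elo-7 (-1.58 ± 0.21, SE, adjusted p = 0.00313) had the same shape. Over 64 genes that activate or oxidise fatty acids, 5 (7.81%) were more negative and 5 (7.81%) more positive in MT KO, against 3.55% and 2.25% of all genes. Of the positive, 3 were the already shifted acox genes. The 5 more positive became 3 without any of MT KO with Cd replicate 1, MT KO without Cd replicate 2 or wild type without Cd replicates 1, 2 or 3. Of 53 ABC transporter genes 3 (5.66%) were more negative and 2 (3.77%) more positive. The more negative were wht-4 (-1.53 ± 0.29, SE, adjusted p = 0.0164), wht-5 (-1.22 ± 0.20, SE, adjusted p = 0.00838) and wht-6. The wht-6 call, with an interaction of -1.34, was not made in 7 of the alternatives at the 0.05 threshold.

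Single cuticle genes were also among the lowered, although the collagen list as a whole lay near the share over all genes. The furrow collagen genes dpy-7 (-1.05 ± 0.16, SE, adjusted p = 0.00533) and dpy-3 (-1.04 ± 0.16, SE, adjusted p = 0.00537), which shape the rings of the cuticle, and the moulting protease inhibitor gene mlt-11 (-0.96 ± 0.15, SE, adjusted p = 0.00604) had called responses in MT KO. Levels of dpy-7 were 8.79, 8.86 and 8.90 in MT KO with Cd, 9.74, 9.90 and 10.20 in MT KO without Cd, 9.88, 10.09 and 9.79 in wild type with Cd, and 10.01, 9.90 and 9.99 in wild type without Cd, so that MT KO with Cd alone stood apart. As a list, 147 cuticle collagens had 7 genes more negative and 3 more positive, or 4.76% and 2.04%, with a median interaction of 0.01. The 7 became 18 without MT KO without Cd replicate 1, 4 without any of MT KO with Cd replicates 1 or 2, MT KO without Cd replicate 3 or wild type without Cd replicate 3, and 3 without any of MT KO without Cd replicate 2, wild type with Cd replicates 1 or 2 or wild type without Cd replicate 2. The 3 more positive became 8 without wild type without Cd replicate 1. Of 50 moulting genes, 2 (4%) were called in each direction.

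Gained responses upward, 257 probe sets with median responses of 0.92 in MT KO and 0.03 in wild type, were led by genes of the pharynx, the muscular feeding organ. The abu, idpp, pqn and nspb genes and their relatives encode disordered or nematode-specific proteins, many of them parts of the pharyngeal cuticle. Of 88 measured, 23 had a more positive response in MT KO and none a more negative one, against 2.25% of all genes called more positive, and the median interaction was 0.38. Leaving out single arrays gave 16 to 32. At the top, idpp-12 read 9.05, 8.90 and 9.25 in MT KO with Cd, 7.25, 7.12 and 6.91 in MT KO without Cd, 6.48, 6.62 and 6.87 in wild type with Cd, and 6.42, 7.40 and 7.06 in wild type without Cd. Only MT KO with Cd stood apart from the other groups, and the interaction was 2.27 ± 0.31 (SE, adjusted p = 0.00374). For abu-8 the interaction was 2.05 ± 0.37 (SE, adjusted p = 0.0124), and both of its probe sets were called. For idpb-4 levels were 4.46, 4.53 and 4.37 in MT KO with Cd, 2.83, 2.90 and 2.73 in MT KO without Cd, 2.91, 2.87 and 2.96 in wild type with Cd, and 2.72, 2.91 and 2.51 in wild type without Cd, and the interaction was 1.43 ± 0.13 (SE, adjusted p = 0.000862). All idpb-4 groups but MT KO with Cd lay below the median of all values, 4.03. Of the 88 probe sets, 34 were of the types that can read related transcripts.

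Markers of the pharynx outside the cuticle families were called in the same direction. Of 16 markers 6 (37.5%) were called, all more positive in MT KO, against 2.25% of all genes, with a median interaction of 0.53. The forkhead gene pha-4, which specifies the pharynx, read 5.37, 5.59 and 5.35 in MT KO with Cd, 4.03, 3.95 and 4.06 in MT KO without Cd, 4.43, 4.67 and 4.53 in wild type with Cd, and 3.90, 4.21 and 4.01 in wild type without Cd. Both strains rose, MT KO further, and the interaction was 0.92 ± 0.14 (SE, adjusted p = 0.00491). The pharyngeal gland gene phat-2 had 0.91 ± 0.12 (SE, adjusted p = 0.00343). The 6 became 3 without any of MT KO without Cd replicates 2 or 3, wild type with Cd replicate 1 or wild type without Cd replicate 2. The summed signal of the 16 markers, as log2 of the sum, was 12.76 to 12.83 in MT KO with Cd, 11.78 to 11.93 in MT KO without Cd, 12.26 to 12.39 in wild type with Cd and 11.86 to 11.99 in wild type without Cd. The part of the amount of pharynx tissue in these values was not tested.

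Neuropeptide genes, which encode secreted signals of neurons and intestine, had list median responses of 0.67 in MT KO and 0.27 in wild type. Of 110 neuropeptide and insulin-like genes 16 were more positive in MT KO and none more negative, and 97 had a positive interaction, with a median of 0.35. Over all genes 61.5% were positive. The FMRFamide-like gene flp-2 read 6.29, 6.57 and 6.75 in MT KO with Cd, 5.11, 5.11 and 5.32 in MT KO without Cd, 5.55, 5.77 and 5.84 in wild type with Cd, and 5.36, 5.33 and 5.55 in wild type without Cd. MT KO with Cd was the highest group on every array, and the interaction was 1.05 ± 0.18 (SE, adjusted p = 0.00858). The neuropeptide-like gene nlp-13 (0.70 ± 0.09, SE, adjusted p = 0.00271) and snet-1 (0.67 ± 0.10, SE, adjusted p = 0.00593) moved the same way, as did unc-10, a gene of the synaptic active zone (0.60 ± 0.10, SE, adjusted p = 0.00759).

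Of 22 neuron markers 3 (13.6%) were called, all more positive in MT KO, against 2.25% of all genes. The summed signal of the 22 was 12.62 to 12.70 in MT KO with Cd, 11.87 to 11.94 in MT KO without Cd, 12.26 to 12.51 in wild type with Cd and 11.91 to 11.93 in wild type without Cd. The part of the amount of neural tissue in the neuropeptide values was not tested. The 16 neuropeptide calls became 10 without any of MT KO with Cd replicates 1 or 2 or MT KO without Cd replicate 2, 9 without MT KO without Cd replicate 3, 6 without replicate 1 of wild type with Cd, 7 without its replicate 3, and 8 without replicate 3 of wild type without Cd.

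Enlarged responses, 72 upward and 42 downward, had median responses of 1.46 in MT KO and 0.63 in wild type upward and -1.73 in MT KO and -0.62 in wild type downward. Upward, hpo-26, named for hypersensitivity to pore-forming toxin, read 7.94, 7.88 and 7.88 in MT KO with Cd, 6.25, 5.73 and 5.61 in MT KO without Cd, 6.40, 6.47 and 6.56 in wild type with Cd, and 5.58, 6.0 and 5.74 in wild type without Cd. The strains overlapped without Cd and were far apart with Cd (interaction 1.33 ± 0.22, SE, adjusted p = 0.00797). The lipase-related gene lips-5 had responses of 1.62 in MT KO and 0.49 in wild type (interaction 1.13 ± 0.12, SE, adjusted p = 0.00159). Downward, the sperm gene ssp-35 had -3.51 in MT KO and -0.85 in wild type (interaction -2.66 ± 0.29, SE, adjusted p = 0.00151). Together these became 58 without MT KO without Cd replicate 2, 66 without replicate 1 of wild type with Cd, 59 without its replicate 3, and 63 without replicate 2 of wild type without Cd.

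**Figure D5:**
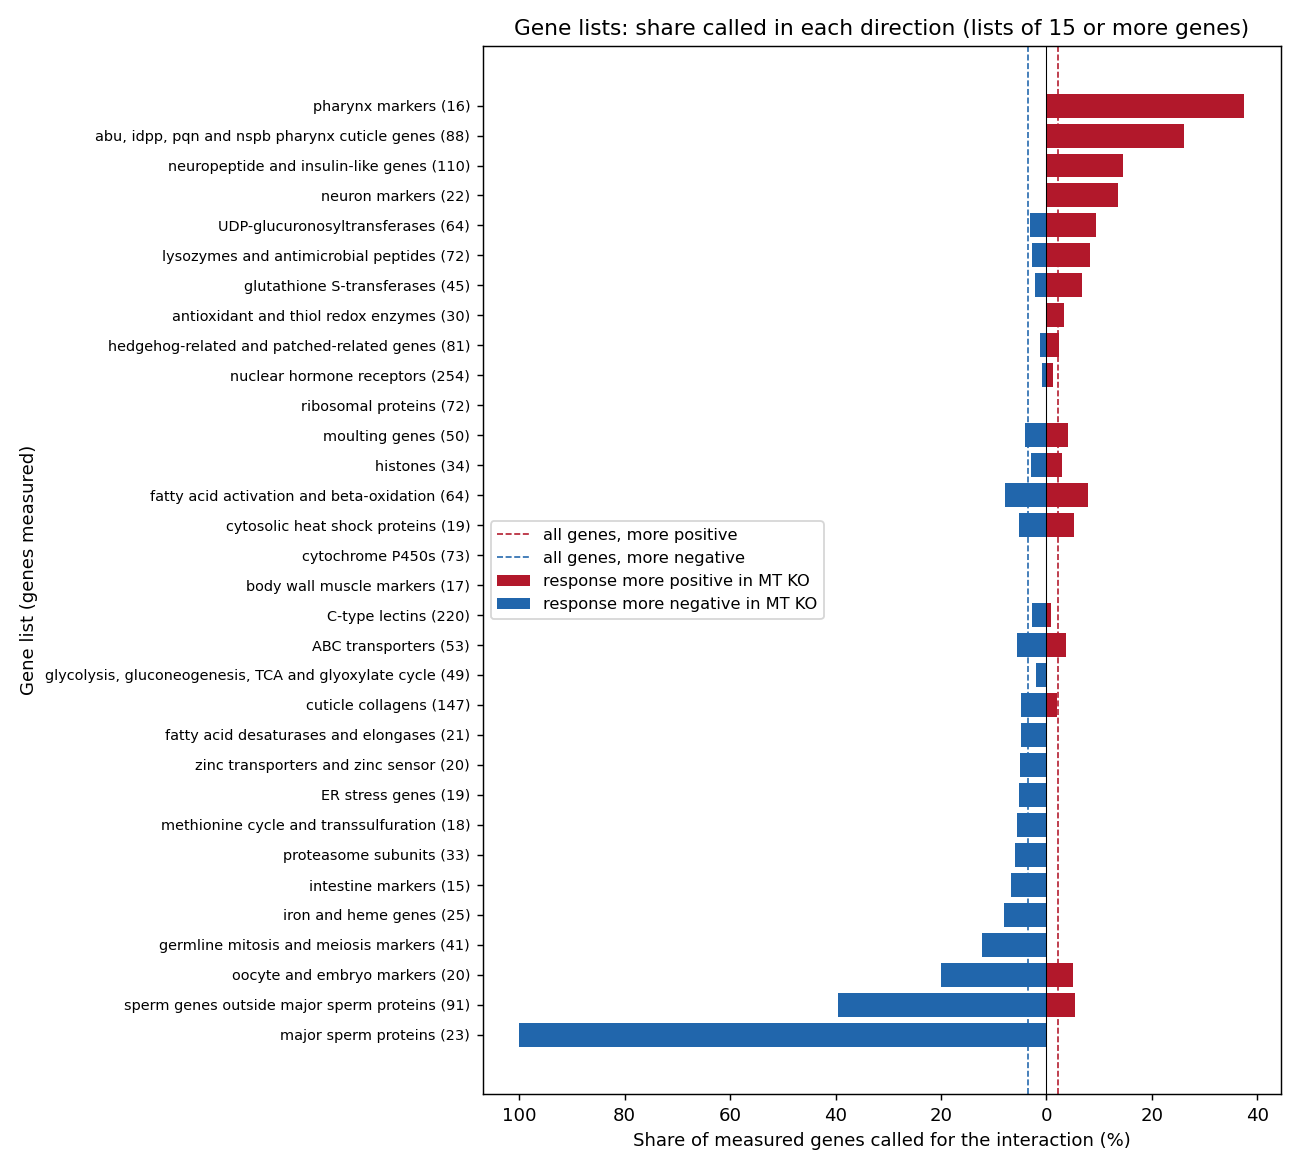
Share of the measured genes of each list with a called interaction (horizontal axis, percent), to the right where the response was more positive in MT KO and to the left where it was more negative, for lists of 15 or more genes (vertical axis), with dashed lines at the shares over all genes, 2.25% and 3.55%. The sperm lists extend furthest to the left and the pharynx and neuropeptide lists furthest to the right.

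Several stress families and the cytochrome P450 genes lay near or below those shares. Over all 40 lists, 41 counts of called genes in 1 direction were between 1 and 5. Of these, 31 moved by over 1.5 times when 1 array was left out, so shares from small counts are unstable. None of 73 cytochrome P450 genes, 11 mitochondrial stress genes, 17 body wall muscle markers or 72 ribosomal protein genes was called. Their median interactions were 0.02, -0.01, 0.15 and -0.01. At an unadjusted p under 0.05 limma gave 3816 probe sets over the whole array. Of 19 cytosolic heat shock genes 1 was more positive and 1 more negative, and of 19 ER stress genes 1 was more negative. Among 64 UDP-glucuronosyltransferase genes 6 (9.38%) were more positive, above the 2.25% of all genes, and 2 (3.12%) more negative. Of 45 glutathione S-transferase genes 3 (6.67%) were more positive and 1 (2.22%) more negative. The gene ugt-18 had levels of 3.74, 3.86 and 4.12 in MT KO with Cd, 2.75, 2.75 and 2.76 in MT KO without Cd, 2.77, 2.75 and 2.77 in wild type with Cd, and 2.80, 2.71 and 2.74 in wild type without Cd, so that a signal above the others appeared on the MT KO with Cd arrays alone (interaction 1.14 ± 0.11, SE, adjusted p = 0.00109). The other 3 groups lay below the median of all values, 4.03.

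Immune genes split over shapes. Of 220 C-type lectin genes 6 (2.73%) were more negative and 2 (0.909%) more positive in MT KO, against 3.55% and 2.25% of all genes. The called genes fell into several shapes, with clec-60 reduced, clec-67 gained from a shifted start, and clec-123 (-1.90 ± 0.25, SE, adjusted p = 0.00304) gained downward. Of 72 lysozyme and antimicrobial peptide genes 6 (8.33%) were more positive and 2 (2.78%) more negative. Among them irg-3, an infection response gene, read 8.66, 8.64 and 8.52 in MT KO with Cd, 7.14, 7.06 and 7.08 in MT KO without Cd, 8.56, 8.64 and 8.59 in wild type with Cd, and 7.89, 7.70 and 7.59 in wild type without Cd. The strains met with Cd from a lower start in MT KO, and the interaction was 0.64 ± 0.10 (SE, adjusted p = 0.0063).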

How the data were processed

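RNA from whole L4 larvae (200 ng per array, per the labels' protocols) was amplified, labelled with biotin and hybridised to 12 one-colour arrays. The deposited values are log2 expression levels made by the authors with GCRMA, per the submitters' processing notes, with its version not given in the sources used here. Of 22625 probe sets, 77 controls were left out and 22548 tested. Gene symbols came from GEO's platform annotation. There were 20766 probe sets with 1 symbol, all matched to a RefSeq symbol, 887 with several and 895 with none, and no gene is named from the last 2 kinds. No sequences or coordinates were used.

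One linear model with a mean per group was fitted to the 12 arrays with limma 3.58.1 in R 4.3.3 (lmFit, eBayes, 8 residual and 1.376 prior degrees of freedom). The interaction and the single comparisons were contrasts of it, two-sided, adjusted by Benjamini-Hochberg over all probe sets and called at 0.05. Errors of differences are limma standard errors. The fit was tested on simulated data. Array precision is limited by the 3 arrays per group.

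For the 40 gene lists, each gene had the probe set with the highest mean. The shares over 17118 genes are the background. Named genes were up to 4 per shape and direction with the largest interaction among those above the median of all values, at most 2 per name family, then hmt-1, pcs-1, cdr-1 and both metallothionein genes, and up to 4 per list with the smallest adjusted p. From these the text mostly gives genes that kept their call at the 0.05 threshold under the other alternatives. The comparison, the shapes and the lists were chosen with earlier results of these data known. Alternatives were an intensity trend, robust variances, quantile normalization, a filter on dim probe sets, the replicate number as a block, array weights, the 3′ to 5′ gap as a covariate, other thresholds, another probe set per gene, each array left out, and, chosen after seeing the data, 2 arrays of wild type without Cd left out together.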

Additional observations from a re-analysis of the deposited data

Results flagged for a closer look

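The cadmium response differed between the strains, by the test of the difference itself, for 1229 probe sets. The interactions of the genes with the largest differences in each shape follow, as MT KO response minus wild-type response on the log2 scale.

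Lost responses had interactions of -4.66 for mtl-1, -2.48 for rol-1, -1.90 for ddn-1 and -1.42 for clec-87 where wild type rose. Among these mtl-1 is itself knocked out in MT KO, so its loss comes with the genotype. Where wild type fell, lost responses had 2.03 for dod-22, 1.95 for dbd-13, 1.30 for ugt-44 and 1.11 for sysm-1. Already shifted genes had -4.51 for cdr-1, -1.32 for lipl-4, -0.90 for acl-14 and -0.85 for ilys-2 among the raised, and 1.87 for acox-1.2, 1.49 for irg-1, 1.45 for srlf-34 and 1.28 for ugt-31 among the lowered. Reversed genes had -1.79 for cdf-2, -1.57 for pck-3, -1.53 for sams-5 and -0.92 for set-22, and in the opposite direction 2.03 for nspb-10, 1.95 for dct-5, 1.79 for gmap-3 and 1.51 for sptl-2. Reduced responses had -1.82 for clec-60, -1.06 for nstp-8, -1.05 for ugt-54 and -0.75 for nadk-2 among the raised, and 1.28 for pho-8, 0.69 for fip-5, 0.62 for oig-2 and 0.59 for sgk-1 among the lowered.

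Genes gained from a shifted start had 2.73 for clec-67, 1.23 for klu-1, 1.11 for swt-6 and 1.11 for cyts-1 upward, and -2.53 for gskl-2, -2.49 for gsp-4, -2.44 for gsp-3 and -2.19 for msrp-1 downward. Gained responses had 2.27 for idpp-12, 2.08 for piit-1, 2.05 for abu-8 and 1.98 for dbd-20 upward, and -3.32 for nsph-3.2, -3.32 for msp-49, -3.17 for msd-2 and -2.99 for msp-45 downward. Enlarged responses had 1.45 for mbug-1, 1.33 for hpo-26, 1.23 for ora-1 and 1.13 for lips-5 upward, and -2.93 for msp-50, -2.66 for ssp-35, -2.50 for msrp-6 and -2.31 for msrp-5 downward. With neither response called, interactions were 0.96 for dod-17, 0.70 for cubn-1, 0.58 for Y45F10B.13, 0.57 for F46G11.4, -0.45 for bub-3, -0.44 for swd-2.1, -0.42 for mec-15 and -2.76 for E01G4.6.

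Of these, rol-1, ddn-1, clec-87, dod-22, ugt-44, sysm-1, ilys-2, irg-1, dct-5, ugt-54, pho-8, oig-2, sgk-1, dbd-20, ora-1 and all those with neither response called lost their call at the 0.05 threshold under at least 1 alternative. At a threshold of 0.01 gmap-3, acl-14, srlf-34, fip-5, abu-8 and msrp-5 lost it too.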

How the results depend on the processing

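Of 138 named probe sets with a called interaction, 78 kept the call at the 0.05 threshold in the alternatives that tested them, 60 lost it in at least 1 and none changed sign. Of the 78, 66 were also called at 0.01. The total of 1229 was 1869 with array weights and 499 at a threshold of 0.01, where the more positive were 729 and 146, the more negative 1140 and 353, and members of gene lists 97 (at 0.01, against 206). The replicate numbers showed no clear pairing of the samples: deviations of same-numbered arrays correlated at -0.20 to 0.24, over 0.1 in 5 of 18 pairs. The mean correlation was 0.05 for same-numbered and -0.02 for differently numbered arrays. Such values cannot show whether same-numbered arrays were prepared together. With the replicate block 1127 were called, 979 of them again, and shape counts stayed within 1.5 times except neither (2).

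Shape counts moved more, since each rests on several thresholds. Array weights gave 54 reversed, 95 already shifted, 186 lost, 46 reduced, 246 gained from a shifted start and 23 neither. A threshold of 0.01 gave 23 already shifted, 12 lost, 5 reduced, 312 gained, 43 enlarged and 0 neither. The covariate gave 47 reduced, 64 enlarged and 53 neither, and with it 895 of the 1229 probe sets kept their shape. The filter gave 42 reduced, 183 gained from a shifted start and 194 enlarged. The trend gave 18 reversed, quantile normalization 5 neither, and single comparisons called at 0.1 gave 60 reversed, 196 gained from a shifted start and 0 neither. Without wild type without Cd replicates 1 and 2 there were 123 already shifted, 58 gained from a shifted start and 35 enlarged. Leaving out single arrays gave 281 to 528 more positive, 15 to 37 reversed, 32 to 92 already shifted, 53 to 112 lost, 13 to 42 reduced, 52 to 193 gained from a shifted start, 58 to 129 enlarged and 1 to 11 neither. Why counts moved was not tested, beyond the fewer arrays or stricter threshold that a setting itself brings. Signal near background limits the low levels.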

Other observations

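Outside the groups described above, the hedgehog-related gene grd-14 read 9.02, 8.74 and 9.07 in MT KO with Cd, 7.60, 7.47 and 7.23 in MT KO without Cd, 7.16, 7.47 and 7.71 in wild type with Cd, and 7.0, 7.78 and 7.46 in wild type without Cd, with an interaction of 1.48 ± 0.29 (SE, adjusted p = 0.0185). Of 81 hedgehog-related and patched-related genes 2 (2.47%) were more positive and 1 (1.23%) more negative in MT KO, against 2.25% and 3.55% of all genes. The sideroflexin gene sfxn-1.1, of a family of mitochondrial carriers, had responses of -1.40 in MT KO and -0.05 in wild type (interaction -1.35 ± 0.19, SE, adjusted p = 0.00427). The proteasome gene rpn-6.2 had -1.07 in MT KO and -0.08 in wild type (interaction -0.99 ± 0.15, SE, adjusted p = 0.00523). Of 33 proteasome genes 2 (6.06%) were called, both more negative in MT KO, against 3.55% of all genes.

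By name family, 6 of 40 ttr genes (transthyretin-related) were more positive and 1 more negative, and 4 of 30 glb genes (globins), 4 of 33 nas genes (astacin proteases) and 4 of 13 dbd genes were more positive with none more negative, against 2.25% and 3.55% of all genes. Of 7 ttbk genes (tau-tubulin kinase-like), 4 were more negative and none more positive, with a median interaction of -1.60. Only name families with at least 4 called genes were looked at, so high shares were favoured by the choice. Among others of these families, 1 of 171 fbxa genes was more positive and 3 more negative, and 2 of 24 kin genes went each way. All these counts are small, and they were not recomputed with single arrays left out.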
